A study of Mus musculus with 16 samples.

Results

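The cholesterol and fatty acid synthesis genes followed here are 28 genes, out of the 50600 gene identifiers counted in footpad epidermis. Their rows were found by symbol, and the list was chosen with earlier results of these data known. Of these genes, 2 supply or use acetyl-CoA, 6 lead from acetoacetyl-CoA through mevalonate to farnesyl diphosphate, and 3 make squalene and lanosterol. A further 8 turn lanosterol into cholesterol, 4 control the pathway or carry sterol, and 5 make, desaturate or lengthen fatty acids. All 28 were detected in each of the 16 libraries, with 168 counts or more, and all passed the minimum of 10 counts in total. Their median level was 97.6 CPM (the count relative to the TMM-scaled library size), against 3.34 CPM over the 22155 genes tested.

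The libraries came from epidermal cells of female C57/B6J mice, 1 mouse for each library and 4 mice for each group, and no transgene or deletion is named for them. From 5 wk of age the mice received for 3 wk the purified AIN-93M diet, either without addition (AhR-poor diet, SYNTH in the labels) or with indole-3-carbinol, a precursor of ligands of the aryl hydrocarbon receptor AhR, at 200 ppm (I3C diet). The footpad was then injected with 50 µl of PBS, alone (vehicle, PBS in the labels) or with 50 µg of papain, a protease allergen, and the epidermis was taken at 6 hr and parted from the dermis with dispase. The groups were therefore AhR-poor with vehicle, AhR-poor with papain, I3C with vehicle and I3C with papain, and mice on the same diet shared cages, so that diet and cage cannot be told apart. The library totals ran from 22500821 to 51844375 counts. The summed level of 10 keratinocyte markers was 39230 to 64520 CPM over all libraries. Markers of dermal fibroblasts, endothelial cells and erythrocytes were detected too. With vehicle, 12 of 14, 8 of 10 and 5 of 5 of them passed the test between diets, each higher on the AhR-poor diet, and so did 5 of 11 markers of monocytes and macrophages. Of 7 Langerhans cell markers none was called there by edgeR, although 6 were higher with an unadjusted p below 0.05, and their sum was 299 to 566 CPM on the I3C and 827 to 934 CPM on the AhR-poor diet.

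Cholesterol is built from acetyl-CoA by a long chain of enzymes that passes through mevalonate, farnesyl diphosphate, squalene and lanosterol. Most of these enzymes are under the transcription factor SREBP-2, the product of Srebf2, which is released from the endoplasmic reticulum when sterol is scarce, while the main product of Srebf1 acts mostly on fatty acid genes. In the epidermis, keratinocytes make cholesterol and fatty acids for the lipid layers of the skin barrier. In skin that has sebaceous glands, the cells of these glands make lipid for sebum.

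Promoters of 4 of the genes are shown to place the sequence context of the pathway. Hmgcs1 is shown because its promoter was the only one of those found for the members with the core of the classical sterol regulatory element, and Ebp, Msmo1 and Idi1 because they had the 3 largest papain responses on the I3C diet. Each is the 250 bases before the transcription start site in RefSeq (GRCm38.p6), 5′ to 3′ on the strand of the gene. That start can differ from the one in the GENCODE annotation, which gives the gene positions named further on. Capitals mark the sterol regulatory element core (TCACCCCAC) and the NF-Y box (CCAAT on either strand, so ATTGG where it lies on the other strand). The windows are chr13:119690101-119690350, plus strand (Hmgcs1), chrX:8193513-8193762, minus strand (Ebp), chr8:64733579-64733828, minus strand (Msmo1) and chr13:8885356-8885605, plus strand (Idi1).
Hmgcs1: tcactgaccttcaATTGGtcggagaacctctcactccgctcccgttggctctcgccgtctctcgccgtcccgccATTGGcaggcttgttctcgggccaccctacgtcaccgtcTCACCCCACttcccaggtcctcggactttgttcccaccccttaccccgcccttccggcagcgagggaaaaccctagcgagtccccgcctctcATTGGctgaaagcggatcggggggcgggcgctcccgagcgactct
Ebp: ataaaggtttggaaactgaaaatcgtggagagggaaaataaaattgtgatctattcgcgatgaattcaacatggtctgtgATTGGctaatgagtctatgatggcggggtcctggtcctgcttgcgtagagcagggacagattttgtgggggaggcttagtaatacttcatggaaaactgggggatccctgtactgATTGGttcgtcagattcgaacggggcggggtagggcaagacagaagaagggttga
Msmo1: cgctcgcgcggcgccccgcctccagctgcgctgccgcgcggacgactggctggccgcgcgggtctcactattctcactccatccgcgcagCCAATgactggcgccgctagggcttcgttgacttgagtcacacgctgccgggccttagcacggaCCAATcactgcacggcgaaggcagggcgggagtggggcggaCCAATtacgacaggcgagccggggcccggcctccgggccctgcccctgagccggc
Idi1: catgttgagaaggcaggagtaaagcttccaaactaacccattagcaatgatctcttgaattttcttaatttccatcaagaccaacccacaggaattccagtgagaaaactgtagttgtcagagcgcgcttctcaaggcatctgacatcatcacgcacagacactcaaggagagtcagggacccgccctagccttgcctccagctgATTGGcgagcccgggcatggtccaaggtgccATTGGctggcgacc

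A promoter was found for 22 of the 28 members, the others being Fdft1, Fdps, Sqle, Scd1, Scd2 and Stard4, and the same windows of 27025 genes served as background. The core TCACCCCAC was in 1 of the 22 members (4.55%) and in 0.555% of all genes, and the wider form TCACNCCAC, which takes in the core, was in the same 1 member and in 1.22% of all genes. The NF-Y box CCAAT was in 18 members (81.8%) against 37.5% of all genes. The Sp1 box GGGCGG was also in 18 members (81.8%), against 35.4% of all genes. The E-box CACGTG was in 4 members (18.2%), namely Dhcr7, Hsd17b7, Insig1 and Sc5d, against 6.86% of all genes. All motifs were searched on both strands. A match of the core is also one of its wider form, and a CCAAT on the other strand can share bases with GGGCGG. No match of any of them lay in the windows of Elovl6 and Acaca. The Acaca window (chr11:84195188-84195437) lies inside the gene, which starts at 84129672 in GENCODE. The bases before that start were not searched. Matches are a description of these letters and were not tested.

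Most of the pathway rose with papain in mice on the I3C diet. With an adjusted p below 0.01 in edgeR, 16 of the 28 genes rose, where 12.7% of all genes tested did, and 3 fell, where 12.9% did. The median log2 fold change of papain over vehicle was 0.46 for the 28 genes and -0.036 for all genes. The rises were mostly under 2-fold: Ebp alone passed the additional minimum of 2-fold, where 3.69% of all genes passed it upward, and Msmo1, Idi1 and Sqle lay at its edge. In 15 of the 28 genes the 4 papain libraries all lay above the 4 vehicle libraries, which was the case for 16.2% of all genes. In a bulk library, a change in the share of a cell type and a change in RNA per cell cannot be told apart.

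**Figure D1:**
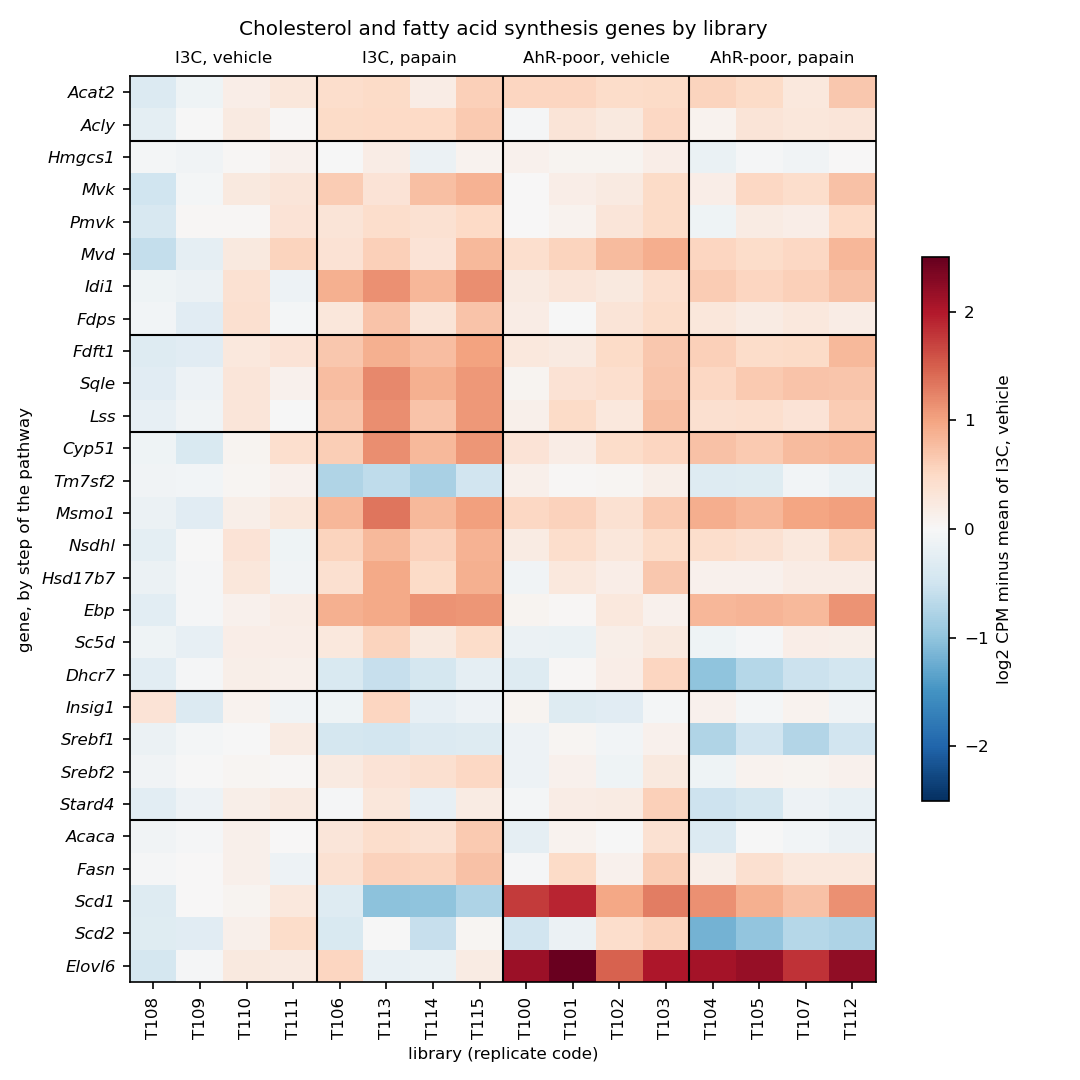
Level of the 28 genes (rows, grouped by step of the pathway) in each of the 16 libraries (columns, with replicate codes), as log2 CPM minus the mean log2 CPM of the 4 I3C vehicle libraries. The I3C papain libraries are reddest for Idi1, Fdft1, Sqle, Lss, Cyp51, Msmo1 and Ebp and blue for Tm7sf2 and Srebf1, and Scd1 and Elovl6 are red in all 8 AhR-poor libraries.

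The summed level of the 17 enzymes from Hmgcs1 to Dhcr7 gives the size of this shift. In the I3C vehicle libraries it was 1155, 1212, 1461 and 1482 CPM, and with papain it was 1711, 1745, 2042 and 2049 CPM. The lowest papain library was thus above the highest vehicle library. On the AhR-poor diet the sum was 1413, 1498, 1561 and 1790 CPM with vehicle and 1515, 1587, 1616 and 1785 CPM with papain, so that those groups overlapped. The I3C vehicle libraries were uneven: T108 was the lowest of its group for 20 of the 28 genes and T109 for 7.

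At the entry to the pathway, Acly makes cytosolic acetyl-CoA from citrate and Acat2 joins acetyl-CoA into acetoacetyl-CoA. Acly was at 187 to 257 CPM with vehicle and 308 to 346 CPM with papain on the I3C diet, without overlap (log2 fold change with its standard error 0.52 ± 0.10, adjusted p = 0.000570). Acat2 rose less (0.42 ± 0.12, adjusted p = 0.00943), and its libraries overlapped.

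Of the 6 genes from Hmgcs1 to Fdps, 2 rose on the I3C diet. Idi1, which isomerises isopentenyl diphosphate, lies at chr13:8885501-8892451 (GRCm38, plus strand). Its level was 31.2, 31.6, 32.1 and 45.3 CPM with vehicle and 61.1, 64.2, 76.7 and 77.2 CPM with papain on the I3C diet, which gave a log2 fold change of 0.99 ± 0.11, adjusted p = 9.5e-07. The papain libraries were all higher, although 1 vehicle library (T110) stood well above the other 3. Mvk, the mevalonate kinase, went from 81.5 ± 19.1 to 126 ± 19.0 CPM (SD, n = 4; log2 fold change 0.63 ± 0.17, adjusted p = 0.00716). Pmvk, Mvd and Fdps had log2 fold changes of 0.39, 0.47 and 0.50, with adjusted p of 0.0385, 0.0770 and 0.0140, and were not called. Hmgcs1, which makes HMG-CoA, was at 377 to 431 CPM with vehicle and 362 to 459 CPM with papain (log2 fold change 0.035 ± 0.075, adjusted p = 0.768). It was the steadiest of the 28 genes, with a coefficient of variation of 7.24% over the 16 libraries. Fdps shares 1124 exonic bases with Gm43738 on the same strand, so its count is uncertain.

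All 3 genes of the next step rose. Fdft1, the squalene synthase, went from 82.2 ± 19.7 to 144 ± 14.5 CPM (0.81 ± 0.15, adjusted p = 0.000301). Sqle, the squalene epoxidase and a rate-limiting enzyme (chr15:59315077-59331192, plus strand), had 68.2, 75.9, 88.8 and 101.6 CPM with vehicle and 142, 152, 176 and 189 CPM with papain (0.98 ± 0.13, adjusted p = 1.4e-05). Lss, which closes the rings of lanosterol, had 56.9, 61.9, 65.5 and 80.4 CPM with vehicle and 106.2, 108.2, 138 and 147 CPM with papain (0.92 ± 0.14, adjusted p = 5.8e-05). The papain and vehicle libraries of Sqle and Lss were apart, and their 2 highest papain libraries were T113 and T115. Exons of Fdft1 overlap 774 bases of Ctsb on the opposite strand and those of Lss 381 bases of 4930483K19Rik, which matters only if the strand was not used in counting.

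Among the 8 genes that turn lanosterol into cholesterol, 6 rose and 1 fell. Ebp, the sterol isomerase (chrX:8185329-8193512, minus strand), had 47.9, 56.9, 62.1 and 65.3 CPM with vehicle and 106.8, 110.7, 124 and 126 CPM with papain on the I3C diet (log2 fold change 1.01 ± 0.10, adjusted p = 2.0e-07). Msmo1, the methylsterol monooxygenase (chr8:64718139-64733792, minus strand), had 56.4, 61.8, 75.5 and 83.1 CPM with vehicle and 120.4, 122, 139.8 and 172 CPM with papain (0.9997 ± 0.12, adjusted p = 3.1e-06). In both genes the groups were far apart. Cyp51, the lanosterol demethylase, went from 86.2 ± 20.2 to 162 ± 28.2 CPM (0.91 ± 0.14, adjusted p = 7.7e-05). Nsdhl and Hsd17b7, which act on the same demethylation intermediates, had log2 fold changes of 0.69 ± 0.11 and 0.69 ± 0.15, with adjusted p of 6.9e-05 and 0.00148. Sc5d, a desaturase near the end of the chain, rose least (0.38 ± 0.11, adjusted p = 0.00992).

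A reductase of the same steps went down and the last enzyme was not called. Tm7sf2, one of the enzymes that reduce the sterol 14 double bond, is expressed at a low level and had 7.95, 8.08, 8.76 and 9.19 CPM with vehicle and 4.82, 5.07, 5.48 and 6.12 CPM with papain on the I3C diet (-0.66 ± 0.11, adjusted p = 9.3e-05). It fell without overlap, and it shares 532 exonic bases with Vps51 on the same strand. Dhcr7, which reduces 7-dehydrocholesterol to cholesterol, had 123 ± 15.6 CPM with vehicle and 92.5 ± 9.58 CPM with papain, which was not called (-0.41 ± 0.15, adjusted p = 0.0495).

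The 2 SREBP genes moved in opposite directions on the I3C diet. Srebf2 had 261, 276, 284 and 288 CPM with vehicle and 322, 353, 366 and 396 CPM with papain, and rose (0.37 ± 0.087, adjusted p = 0.00215). Srebf1 had 289, 309, 317 and 371 CPM with vehicle and 234, 235, 251 and 255 CPM with papain, and fell (-0.40 ± 0.088, adjusted p = 0.00136). In both genes the groups did not overlap. Insig1, which holds SREBP in the endoplasmic reticulum and is itself an SREBP target, had 53.2 to 85.1 and 58.5 to 97.2 CPM (0.031 ± 0.16, adjusted p = 0.909). Stard4, a carrier of cholesterol between membranes, had 41.8 to 58.7 and 43.3 to 60.6 CPM (0.059 ± 0.14, adjusted p = 0.799).

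Of the 5 fatty acid genes, 2 rose and 1 fell. Acaca makes malonyl-CoA and went from 67.2 ± 4.19 to 91.8 ± 9.95 CPM (0.45 ± 0.11, adjusted p = 0.00291). Fasn builds palmitate from it and had 262, 280.4, 287 and 313 CPM with vehicle and 370.4, 420.2, 424 and 471 CPM with papain (0.56 ± 0.12, adjusted p = 0.000735). In neither gene did the groups overlap. Scd1, the stearoyl-CoA desaturase, fell from 295 ± 47.2 to 174 ± 41.4 CPM (-0.76 ± 0.20, adjusted p = 0.00713). Scd2 and Elovl6 had log2 fold changes of -0.24 ± 0.23 and 0.11 ± 0.21 and were not called.

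Some of these calls were lost when 1 library was left out, in some cases a library of the AhR-poor diet, outside this comparison. Acaca was no longer called without T108, T109 or T115, with adjusted p up to 0.0167, and Srebf2 without T115 (0.0129). Mvk lost its call without any 1 of T108, T109, T106, T114, T115, T102 or T107 (up to 0.0308), and Scd1 without any 1 of T109, T110, T111, T113, T114 or T115 (up to 0.0285). Acat2 and Sc5d, just inside the threshold, lost their calls in 16 and 17 of the 24 alternatives tried, among them in Acat2 when a library other than T111, T114 and T112 was left out, and in Sc5d when a library other than T111, T101, T103 and T104 was (adjusted p up to 0.0462 and 0.0561). With 1 library left out at a time, 11 to 18 of the 28 genes rose, and none of these 19 changes reversed. Past 2-fold, no gene rose without T108, T109 or T115, and 3 to 5 did without T110, T111, T106, T114, T101, T104 or T105. Among the cell type lists, 4 of 10 neutrophil markers rose with papain on the I3C diet and 1 fell, and their sum was 55.7 to 78.8 CPM with vehicle and 65.9 to 108.7 CPM with papain. The keratinocyte sum was 53910 to 60020 CPM with vehicle and 46380 to 52730 CPM with papain, and 1 of its 10 genes fell. Of 7 T cell markers 1 rose, with a sum of 83.1 to 107.3 CPM with vehicle and 161 to 184 CPM with papain. Over all genes tested, 12.7% rose and 12.9% fell. Their part in the response of the 28 genes was not tested.

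**Figure D2:**
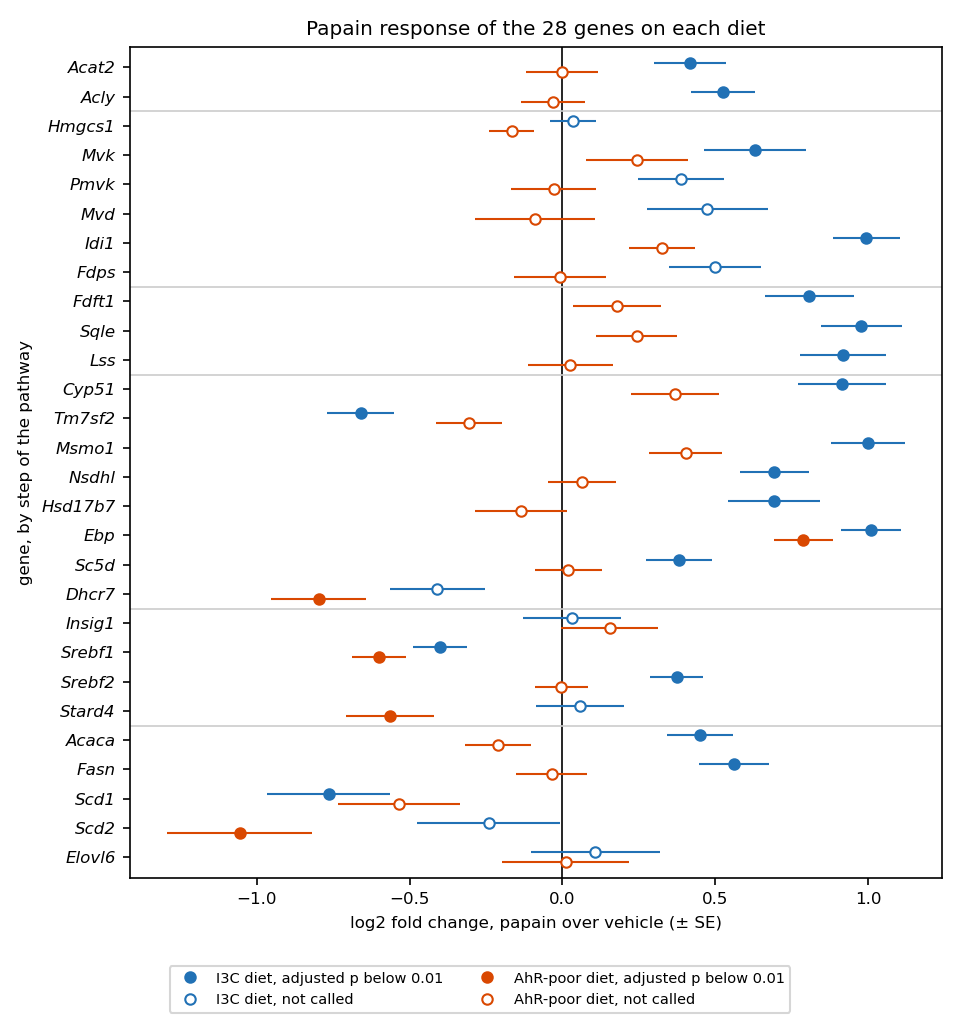
Log2 fold change of papain over vehicle (x axis, points with standard errors from edgeR) of each of the 28 genes (y axis) on the I3C diet in blue and the AhR-poor diet in orange, filled where the adjusted p was below 0.01. On the I3C diet 19 points are filled and 16 of them lie right of 0, and on the AhR-poor diet 5 are filled and 1 lies right of 0.

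On the AhR-poor diet, papain changed fewer of the 28 genes at the same threshold. With an adjusted p below 0.01, 1 rose, where 12.4% of all genes tested did, and 4 fell, where 10.1% did. The count that fell was thus near the share of all genes. The median log2 fold change was -0.0059 for the 28 genes (0.023 with the RLE scaling of edgeR and 0.076 without T103) and -0.0044 for all genes. Papain libraries lay wholly above vehicle libraries for 4 of the 28 genes, against 17.0% of all genes.

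Ebp was the gene that rose. It had 59.1, 60.5, 61.8 and 68.9 CPM with vehicle and 100.8, 102.4, 103.2 and 126 CPM with papain on the AhR-poor diet, without overlap (log2 fold change 0.79 ± 0.10, adjusted p = 5.8e-06). The papain library T112 was above the other 3. Of the other sterol enzymes, Idi1, Cyp51 and Msmo1 also had all papain libraries above all vehicle libraries, and their log2 fold changes were 0.33 ± 0.11, 0.37 ± 0.14 and 0.40 ± 0.12, with adjusted p of 0.0272, 0.0567 and 0.0142. They did not pass the threshold. Sqle, Fdft1 and Lss had log2 fold changes of 0.24 ± 0.13, 0.18 ± 0.14 and 0.026 ± 0.14, with overlapping libraries.

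The 4 genes that fell came from different steps. Dhcr7 had 97.9, 125, 138 and 177 CPM with vehicle and 61.2, 75.0, 84.1 and 89.1 CPM with papain (-0.80 ± 0.16, adjusted p = 0.000760). Srebf1 had 292, 307, 331 and 346 CPM with vehicle and 190.1, 192, 228 and 230.4 CPM with papain (-0.60 ± 0.088, adjusted p = 3.5e-05), and was thus called lower on both diets. Stard4 went from 59.6 ± 11.5 to 40.4 ± 5.23 CPM (-0.56 ± 0.14, adjusted p = 0.00582). Scd2, a second stearoyl-CoA desaturase next to Scd1 on chromosome 19, had 170.1, 214, 320.4 and 349.9 CPM with vehicle and 104.4, 119, 139 and 145 CPM with papain (-1.06 ± 0.24, adjusted p = 0.00308). It was the only member past 2-fold here, where 2.42% of all genes fell by that much, and its vehicle libraries were spread widely. Scd2 lost its call without T102, T103, T104 or T105 (adjusted p up to 0.0159), and then the count past 2-fold was 0. Stard4 lost its call without any 1 of T109, T110, T106, T115, T101, T102, T103, T104 or T105 (up to 0.0344). The count of genes that fell was 2 without T102, T103, T104 or T105, and the count that rose was 2 without T109, T110, T111 or T113.

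Srebf2 was not called on this diet. It had 254, 259, 297 and 329.7 CPM with vehicle and 255, 289, 294 and 298 CPM with papain (-0.0031 ± 0.087, adjusted p = 0.992). Its groups overlapped. Fasn had 279 to 434 and 316 to 379 CPM (-0.035 ± 0.12, adjusted p = 0.853), and Acly 217 to 317 and 235 to 276 CPM (-0.029 ± 0.10, adjusted p = 0.867). Scd1 had 571, 711, 978 and 1094 CPM with vehicle and 487, 542, 643 and 643 CPM with papain, which overlapped (-0.54 ± 0.20, adjusted p = 0.0508). Elovl6 had a log2 fold change of 0.010 ± 0.21, and was not called. In the same libraries, 9 of 10 neutrophil and 8 of 11 monocyte and macrophage markers rose with papain, and 13 of 14 fibroblast markers did. The neutrophil sum was 84.6 to 103.2 CPM with vehicle and 154 to 849 CPM with papain. The monocyte and macrophage sum was 54.8 to 67.5 CPM with vehicle and 131 to 565 CPM with papain, and the fibroblast sum 339 to 575 CPM and 679 to 1156 CPM. The median log2 fold change of the 14 fibroblast markers was 1.98. The part of these cell types in the values of the 28 genes was not tested.

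**Figure D3:**
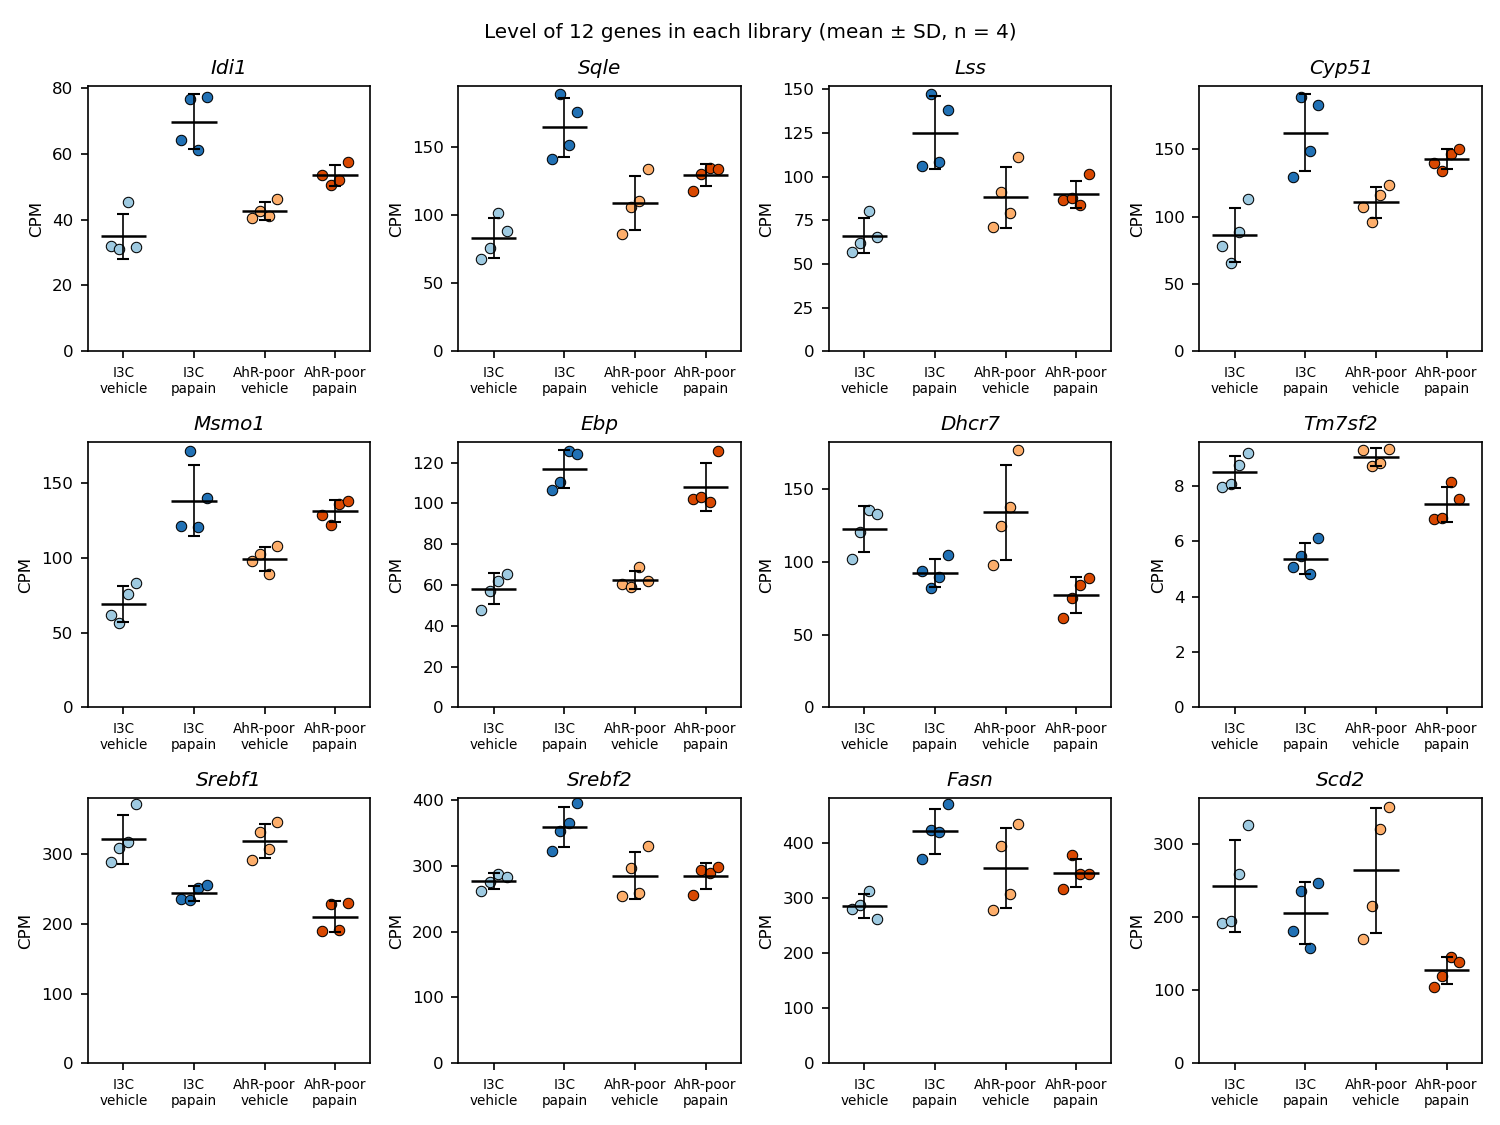
CPM of 12 genes (y axis, linear from 0) in each library (points) of the 4 groups (x axis), with the group mean (bar) and SD (whiskers, n = 4). For Idi1, Sqle, Lss, Cyp51 and Msmo1 the step from vehicle to papain is larger on the I3C than on the AhR-poor diet, Ebp steps up and Srebf1 down on both, and Srebf2 steps up on I3C.

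Whether papain acted differently on the 2 diets was tested directly with the interaction, the response on the AhR-poor diet minus that on the I3C diet. None of the 28 genes passed an adjusted p of 0.01 in edgeR, where 0.0181% of all genes did, and the lowest values were 0.0650 for Lss and 0.0693 for Idi1. At an unadjusted p below 0.05, 18 of the 28 genes were negative, where 6.07% of all genes were, and 1, Tm7sf2, was positive. The interaction was below 0 for 25 of the 28 genes, with a median of -0.53 on the log2 scale, against 0.026 for all genes. DESeq2 called 2 genes, both negative: Lss, with an adjusted p of 0.00432, and Idi1, at the edge of the threshold with 0.01 after rounding.

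By size, the interaction was most negative for Lss (-0.89 ± 0.20), Hsd17b7 (-0.83 ± 0.21) and Scd2 (-0.81 ± 0.33). Sqle (-0.73 ± 0.19), Idi1 (-0.67 ± 0.15), Acaca (-0.66 ± 0.15), Nsdhl (-0.63 ± 0.16) and Fasn (-0.60 ± 0.16) were among the others with an unadjusted p below 0.05. Ebp, the gene called higher on both diets, had an interaction of -0.22 ± 0.14, and Srebf1, called lower on both, -0.20 ± 0.12. Tm7sf2 (0.35 ± 0.15), Scd1 (0.23 ± 0.28) and Insig1 (0.12 ± 0.22) were above 0. Of the 16 genes that rose on the I3C diet, 10 were above 0 and 6 below 0 on the AhR-poor diet. The lowest adjusted p over the members ran from 0.0145 without T110 to 0.163 without T115, so no single library brought a call.

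The diet comparisons use the same libraries again. Without papain, the diet changed 2 of the 28 genes: Scd1 and Elovl6 were higher on the AhR-poor diet, both past 2-fold. Of all genes tested, 1.72% were called higher, 1.59% were called higher past 2-fold, and 0.0% were called lower. No member was called lower by edgeR or DESeq2, and 0 were below 0 with an unadjusted p below 0.05. With papain, the same 2 genes were again past 2-fold higher, where 7.15% of all genes were. At any fold 3 of the 28 genes were higher and 2 lower, where 8.13% and 3.07% of all genes were.

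Elovl6 lengthens palmitate to stearate and lies at chr3:129532355-129638495 (plus strand). With vehicle it had 39.2, 52.0, 62.2 and 62.9 CPM on the I3C diet and 149, 216, 233 and 296 CPM on the AhR-poor diet (log2 fold change 2.05 ± 0.22, adjusted p = 0.000110). With papain it had 47.0, 47.7, 61.3 and 77.1 CPM on the I3C diet and 186, 226, 240.2 and 248 CPM on the AhR-poor diet (1.95 ± 0.22, adjusted p = 1.7e-05). Every AhR-poor library was above every I3C library.

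Scd1 puts the first double bond into stearate and palmitate and lies at chr19:44394455-44407879 (minus strand). With vehicle it had 234, 293, 304 and 349 CPM on the I3C diet and 571, 711, 978 and 1094 CPM on the AhR-poor diet (1.51 ± 0.20, adjusted p = 0.000552). With papain it had 144, 146, 171 and 233 CPM on the I3C diet and 487, 542, 643 and 643 CPM on the AhR-poor diet (1.74 ± 0.21, adjusted p = 2.7e-05). Again all AhR-poor libraries were higher. Both genes stayed called in all 24 alternatives with each injection. Scd2 was not called between diets (0.12 ± 0.23, adjusted p = 0.922 with vehicle and -0.69 ± 0.24, adjusted p = 0.0510 with papain). The ratio of Scd1 to Scd2, each as CPM per exonic base, was 1.199 to 1.68 with vehicle and 0.684 to 1.44 with papain on the I3C diet. On the AhR-poor diet it was 1.99 to 6.42 with vehicle and 3.75 to 6.87 with papain. The desaturase genes resemble each other in sequence, and how reads that fit several genes were counted is not given in the sources used here.

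No sterol enzyme was called between diets with vehicle. All 17 log2 fold changes from Hmgcs1 to Dhcr7 were above 0, with a median of 0.27, and 8 of them had an unadjusted p below 0.05. Over the 28 genes the median was 0.25 and 13 were above 0 with an unadjusted p below 0.05, where 8.94% of all genes were and the median was -0.01. T103 was the highest AhR-poor vehicle library for 23 of the 28 genes, and without it the median of the 28 was 0.12. Msmo1 and Acat2 had no overlap, with 56.4 to 83.1 CPM on the I3C and 89.0 to 108.2 CPM on the AhR-poor diet for Msmo1 (0.52 ± 0.12, adjusted p = 0.0186), and 22.7 to 35.0 and 39.3 to 41.9 CPM for Acat2 (0.48 ± 0.12, adjusted p = 0.0267). Both missed the threshold, and DESeq2 called 4 of the 28 genes higher at any fold, as did edgeR without T111. The remaining sterol enzymes had log2 fold changes between 0.022 (Sc5d) and 0.62 (Mvd). The fibroblast, endothelial, erythrocyte and monocyte markers called between diets, and the summed Langerhans cell markers, were also higher in these AhR-poor vehicle libraries, and their part in the values of the 28 genes was not tested.

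With papain, 15 of the same 17 enzymes had log2 fold changes below 0, with a median of -0.24. The median of all 28 was -0.25, and -0.15 when scaled by library size only. In 11 of the 28 genes all AhR-poor libraries lay below all I3C libraries, which was the case for 12.3% of all genes. Acaca was lower on the AhR-poor diet, at 52.7, 61.0, 63.7 and 66.3 CPM against 82.2, 87.9, 91.5 and 105.6 CPM on the I3C diet (-0.59 ± 0.11, adjusted p = 0.000681). Srebf2 was lower too (-0.34 ± 0.087, adjusted p = 0.00949), and Tm7sf2 higher (0.44 ± 0.11, adjusted p = 0.00734). Acaca was called in all 24 alternatives, while Srebf2 was lost in 15 of them and Tm7sf2 in 13, with adjusted p up to 0.0534 and 0.0330. For Srebf2 these were without any 1 of T109, T110, T113, T114, T115, T102, T104, T105, T107 or T112, and for Tm7sf2 without any 1 of T109, T110, T106, T113, T114, T101, T102, T104, T105, T107 or T112. The count of genes called lower was then 1 without T109, T113, T114, T115, T102, T104, T105, T107 or T112. Hsd17b7, Idi1 and Lss had no overlap and adjusted p of 0.0137, 0.0165 and 0.0219, with log2 fold changes of -0.56 ± 0.15, -0.39 ± 0.11 and -0.48 ± 0.14. A two-sided exact permutation test of 4 libraries against 4 cannot go below p = 0.0286, the value of every gene without overlap. In these papain libraries 13 of 14 fibroblast, 9 of 10 endothelial, 6 of 10 neutrophil and 11 of 11 monocyte and macrophage markers were higher on the AhR-poor diet. The fibroblast sum was 190.2 to 345 CPM on the I3C and 679 to 1156 CPM on the AhR-poor diet, and the erythrocyte sum 0.400 to 17.2 and 267 to 1254 CPM. The log2 fold changes of the 14 fibroblast markers ran from 0.51 to 9.13 with a median of 6.47. Their sum thus shows less of a shift than most of them had. The part of these cell types in the lower values of the sterol enzymes was not tested.

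**Figure D4:**
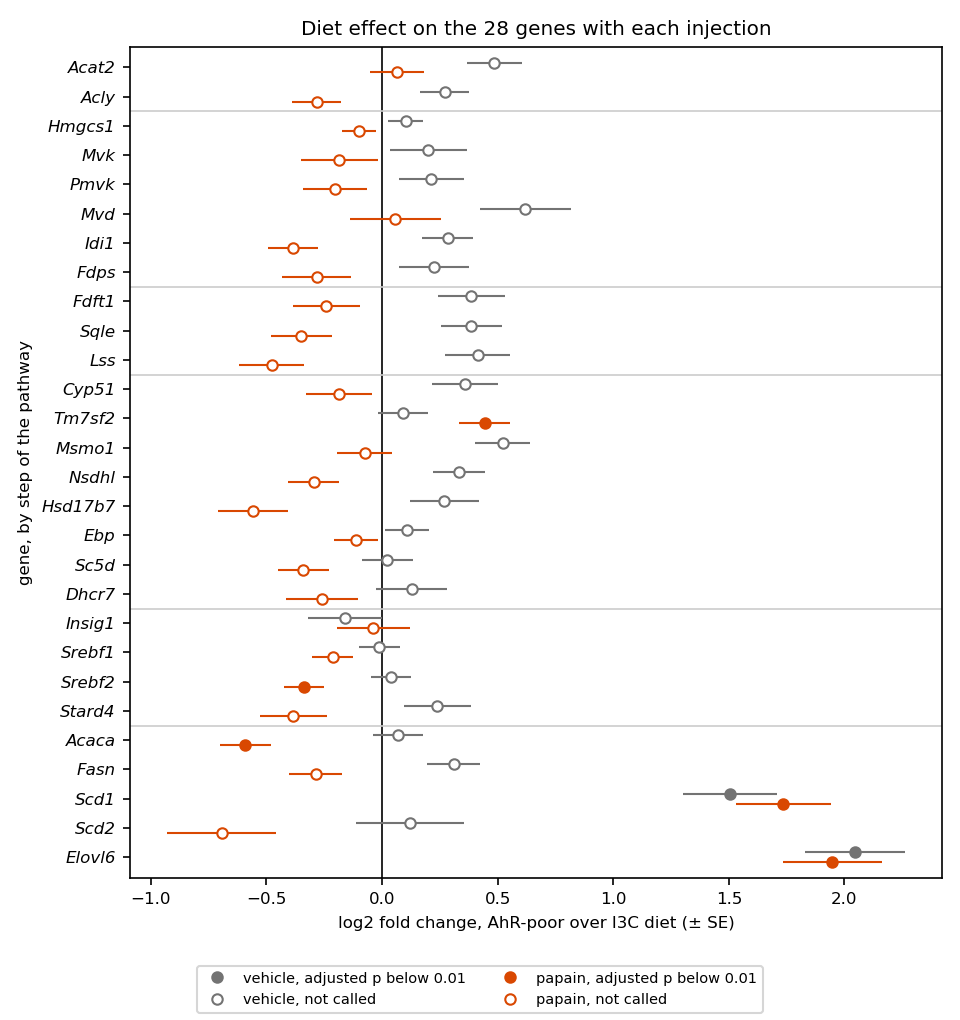
Log2 fold change of the AhR-poor over the I3C diet (x axis, points with standard errors from edgeR) of each of the 28 genes (y axis) with vehicle in grey and papain in orange, filled where the adjusted p was below 0.01. Scd1 and Elovl6 lie between 1.51 and 2.05 with both injections, and most other points lie right of 0 with vehicle and left of 0 with papain.

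Markers of several cell types, sebocytes among them, differed between diets in the direction of Scd1 and Elovl6. With vehicle and with papain, 12 and 13 of 14 fibroblast, 8 and 9 of 10 endothelial and 5 and 5 of 5 erythrocyte markers were called higher on the AhR-poor diet. Of 10 sebocyte markers, 8 passed the test as higher on the AhR-poor diet, with either injection, 7 of them past 2-fold, and none was called with papain on either diet in edgeR, where 1 had an unadjusted p below 0.05 on the I3C diet and none on the AhR-poor diet. The log2 fold changes of the 10 with papain on the I3C diet were below 0 in 7 and above 0 in 3. They ran from -1.50 to 0.18, with a median of -0.33. Scd1, at a far higher level, was called lower in that comparison (-0.76 ± 0.20). The summed level of 9 of the sebocyte markers, without the abundant keratin Krt79, was 8.50 to 36.2 CPM with vehicle and 6.45 to 20.9 CPM with papain on the I3C diet. On the AhR-poor diet it was 95.6 to 199 CPM with vehicle and 112.5 to 162 CPM with papain. All 10 were counted in 15 or 16 libraries, so none of them was at 0 throughout. Fa2h, which hydroxylates fatty acids, had 3.25, 4.76, 9.20 and 18.6 CPM with vehicle on the I3C diet and 50.1, 65.1, 107.1 and 114.7 CPM on the AhR-poor diet. Of the adipocyte markers, Adipoq, Plin1, Cfd and Thrsp had at most 3 counts in any library, while 1 of the 7 tested was higher on the AhR-poor diet with vehicle and 4 with papain. The part of these cells in the levels of Scd1 and Elovl6 was not tested.

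**Figure D5:**
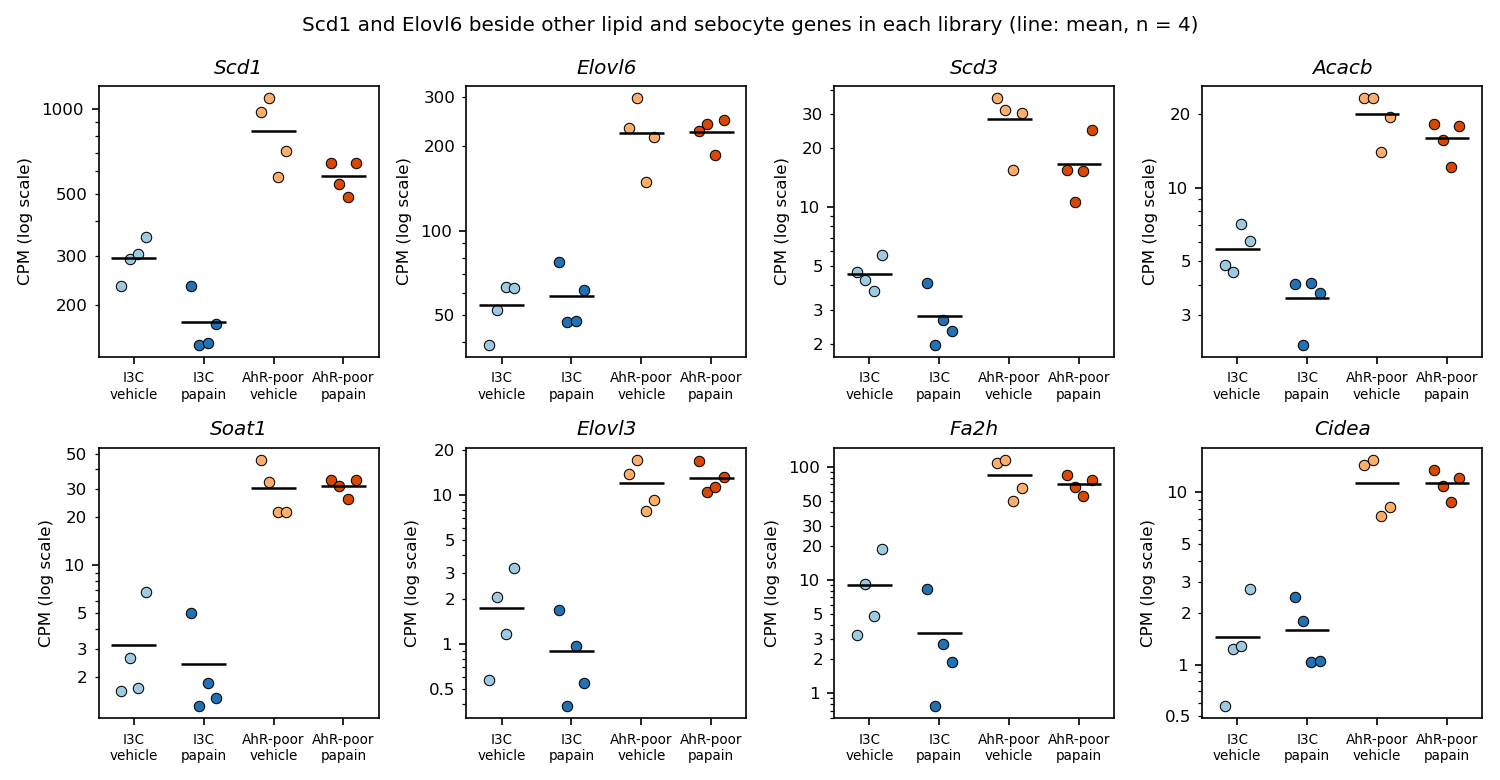
CPM (y axis, log scale) of Scd1 and Elovl6, of the lipid genes Scd3 and Acacb and of the sebocyte markers Soat1, Elovl3, Fa2h and Cidea in each library (points) of the 4 groups (x axis), with the group mean (bar, n = 4). In all 8 genes the AhR-poor libraries lie above the I3C libraries with both injections.

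Of 27 other fatty acid genes, 26 were tested. With vehicle 5 were higher on the AhR-poor diet and 0 lower, and with papain 6 higher and 0 lower. The shares of all genes higher and lower were 1.72% and 0.0% with vehicle and 8.13% and 3.07% with papain. The largest differences were those of Elovl3, which makes very long saturated chains in sebaceous glands (2.78 ± 0.46, adjusted p = 0.00299 with vehicle), Scd3, the sebocyte desaturase (2.63 ± 0.30, adjusted p = 0.000171), and Acacb, the mitochondrial acetyl-CoA carboxylase (1.83 ± 0.20, adjusted p = 5.7e-05). In the papain libraries the log2 fold changes of these 3 were 3.83 ± 0.50, 2.57 ± 0.31 and 2.17 ± 0.21. With papain on the I3C diet 8 rose and 3 fell, where 12.7% and 12.9% of all genes did. Among those that rose was Elovl7, an elongase, at 112.8 ± 14.1 CPM with vehicle and 250.4 ± 31.8 CPM with papain (1.15 ± 0.14, adjusted p = 5.4e-06). Hacd1, a dehydratase of fatty acid elongation, rose on both diets (1.34 ± 0.19 on I3C and 1.69 ± 0.18 on AhR-poor), and Mlxipl, the carbohydrate-responsive regulator of lipogenesis, fell on both (-1.51 ± 0.29 and -1.11 ± 0.27) from a vehicle mean of 0.881 ± 0.181 CPM on I3C and 1.18 ± 0.271 CPM on AhR-poor.

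Of 10 other sterol synthesis genes tested, 2 rose with papain on the I3C diet and 1 on the AhR-poor diet, where 12.7% and 12.4% of all genes did. Soat1, which esterifies cholesterol and is also among the sebocyte markers, was the only one called past 2-fold, and was higher on the AhR-poor diet with vehicle (30.7 ± 11.6 against 3.19 ± 2.44 CPM, 3.27 ± 0.50, adjusted p = 0.00199) and with papain (3.69 ± 0.51, adjusted p = 0.000184). Of 12 tested genes of SREBP processing, 3 rose and 1 fell with papain on the I3C diet, 1 rose and 2 fell on the AhR-poor diet, and none passed 2-fold. Over all genes, 12.7% rose and 12.9% fell on the I3C diet, and 12.4% rose and 10.1% fell on the AhR-poor diet.

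Among the genes of sterol uptake and efflux, several passed 2-fold. With papain on the I3C diet 12.7% of all genes rose, 3.69% past 2-fold, and 12.9% fell. On the AhR-poor diet 12.4% rose with papain and 10.1% fell. Of 14 uptake and transport genes, 4 rose with papain on the I3C diet, 3 of them past 2-fold: Lrp8, a lipoprotein receptor (7.11 ± 1.43 to 21.6 ± 5.56 CPM, 1.60 ± 0.16, adjusted p = 3.5e-07), Scarb1, the receptor of high-density lipoprotein (1.27 ± 0.17, adjusted p = 7.5e-06), and Npc1l1 (1.05 ± 0.21, adjusted p = 0.000467). Lrp8 also rose on the AhR-poor diet (1.53 ± 0.16, adjusted p = 1.3e-06), where Vldlr, another lipoprotein receptor, fell (-1.04 ± 0.18, adjusted p = 0.000236). A list of 12 genes took in the oxysterol receptor LXR (Nr1h2 and Nr1h3), Mylip and Lpcat3 besides genes of sterol efflux and oxysterol turnover. Of these 12, 2 rose and 7 fell with papain on the I3C diet, and 2 rose and 4 fell on the AhR-poor diet. Cyp7b1, which breaks down oxysterols, rose on both (3.06 ± 0.24, adjusted p = 3.8e-08 on I3C and 2.78 ± 0.24, adjusted p = 2.2e-07 on AhR-poor). Cyp46a1, which makes an oxysterol, fell on both from a vehicle mean of 2.31 ± 0.454 CPM on I3C and 2.23 ± 0.324 CPM on AhR-poor (-2.77 ± 0.30, adjusted p = 6.4e-07 and -1.66 ± 0.27, adjusted p = 0.000101). Abcg5, a sterol exporter, was called lower on the I3C diet, but its mean was only 0.184 ± 0.108 CPM with vehicle, so no fold is given. Between diets with papain, Cyp27a1, another maker of an oxysterol, was higher on the AhR-poor diet (1.17 ± 0.23, adjusted p = 0.00116), and so was Gramd1b, a carrier of cholesterol from the plasma membrane (1.09 ± 0.27, adjusted p = 0.00709). The 12 genes of LXR, efflux and turnover, with the low Abcg5 among them, showed medians of -0.77 on the I3C diet and -0.24 on the AhR-poor diet. These are log2 fold changes of papain over vehicle, and the medians of all genes were -0.036 and -0.0044.

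In fatty acid oxidation, 2 of 13 genes rose and 4 fell with papain on the I3C diet, and 1 rose and 5 fell on the AhR-poor diet. Over all genes, 12.7% rose and 12.9% fell on the I3C diet, and 12.4% rose and 10.1% fell on the AhR-poor diet. Ppara, a nuclear receptor for fatty acids, fell on both (-1.75 ± 0.20, adjusted p = 1.7e-06 on I3C and -1.24 ± 0.19, adjusted p = 6.5e-05 on AhR-poor), and so did Ppargc1a, its coactivator, from vehicle means of 0.877 ± 0.156 and 0.913 ± 0.349 CPM (-2.05 ± 0.33 and -2.44 ± 0.34). Pdk4, which shifts cells from glucose to fat as fuel, was higher on the AhR-poor diet with papain (34.0 ± 9.37 against 7.38 ± 3.97 CPM, 2.20 ± 0.36, adjusted p = 0.000685).

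Levels of the 28 genes per length, in RPKM (CPM per 1000 exonic bases), spanned a wide range. Averaged over the 16 libraries, Scd1 was highest at 96.4 ± 59.4 RPKM (SD, n = 16) and Hmgcs1 next at 88.6 ± 6.41, followed by Acly at 50.7 ± 8.29 and Srebf1 at 48.6 ± 9.65. The SD over 16 libraries holds the differences between the 4 groups as well as those between mice. The order of genes depended on the group. On the I3C diet, Acly and Srebf1 were at 42.0 ± 5.45 and 57.1 ± 6.28 RPKM with vehicle. With papain they were at 60.4 ± 3.40 and 43.3 ± 1.93 RPKM. Levels of different genes were not tested against each other. On the AhR-poor diet with vehicle Scd1 alone reached 171 ± 49.0 RPKM (n = 4), and on the I3C diet with papain it was 35.5 ± 8.45, below Hmgcs1 at 89.6 ± 9.03. The lowest genes were Tm7sf2 and Fdps at 1.72 RPKM each and Acaca at 4.25 ± 0.839. Tm7sf2 and Fdps share exonic bases with another gene on the same strand, so their counts are uncertain. Over the 16 libraries Elovl6 and Scd1 varied most, with coefficients of variation of 65.7% and 61.6%, and all members but Hmgcs1 had 13.9% or more.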

How the data were processed

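RNA was sequenced from dispase-separated footpad epidermis of 16 mice (TruSeq Stranded mRNA, paired-end reads). Per the labels and the methods, the authors aligned reads to mm10 with STAR and deposited 1 table of raw counts for 50600 identifiers, not normalized. The counting tool, annotation and strand setting are not given in the sources used here. Identifiers were paired with symbols through GENCODE (50376 matched). Library totals were 22500821 to 51844375 counts, and error covers counting and the spread between 4 mice.

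Groups came from the diet and treatment labels. The 22155 genes with 10 counts or more in all were scaled by TMM (factors 0.937 to 1.07) and tested with edgeR 4.0.16 in R 4.3.3 by robust quasi-likelihood, with 1 mean for each group over all 16 libraries. P-values were Benjamini-Hochberg adjusted over all genes tested. A gene was called at an adjusted p below 0.01, at any fold or past 2-fold (log2 fold change beyond 1). Errors of log2 fold changes are standard errors, those of CPM are SD. RPKM used the union of exons in GENCODE. The call past 2-fold was checked on simulated data with papain changes planted past 2-fold. Changes under 2-fold, the call at any fold and the interaction were not checked in this way. Alternatives were RLE or library size scaling, other count filters, an adjusted p of 0.05, only the libraries compared, DESeq2 1.42.0, and each library left out. In exact tests, log2 CPM had a prior count of 0.5.

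The members and lists were chosen with earlier results of these data known. Outside the 28 members, genes were named if called past 2-fold, at most the 3 largest for each list and comparison. Results for 4 further listed genes are not reported here.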

Additional observations from a re-analysis of the deposited data

Results flagged for a closer look

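Each of the 28 genes was checked in each of the 4 groups of 4 libraries, and in 4 of these sets 1 library stood apart, with a gap to its nearest neighbour above the critical share of the range in Dixon's test. Chance marks about 1 in 20 such sets. Idi1 was at 45.3 CPM in T110 of I3C with vehicle, where the other 3 libraries had 31.2 to 32.1 CPM. Ebp was at 126.0 CPM in T112 of AhR-poor with papain, where the others had 100.8 to 103.2 CPM. Insig1 was at 97.2 CPM in T113 of I3C with papain, against 58.5 to 62.2 CPM in the others. Acly was at 346 CPM in T115 of I3C with papain, against 308 to 313 CPM.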

How the results depend on the processing

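Of 31 calls on single members, 21 held in all 24 alternatives, 10 were lost in at least 1 and 0 reversed. Shares of all genes called are given here for the main setting only. The counts under the alternatives therefore cannot be set against what all genes did there. With an adjusted p below 0.05, 4 genes were higher by diet with vehicle, 6 lower by diet with papain and 3 higher with papain on the AhR-poor diet. DESeq2 gave 4 genes higher by diet with vehicle, 2 higher with papain on the AhR-poor diet, 3 past 2-fold higher with papain on the I3C diet and 2 with a negative interaction. The count lower by diet with papain was 1 with RLE factors, with library size only, with filterByExpr, with 10 counts in every library and with only the libraries compared. The count past 2-fold higher with papain on the I3C diet was 3 with RLE factors, with at least 1 count and with only the libraries compared, 2 with filterByExpr, and 0 with library size only or 10 counts in every library. With only the libraries compared, 4 genes were higher and 0 past 2-fold lower with papain on AhR-poor. Counts past 2-fold became, when no minimum fold was asked, 2 lower by diet with papain, 1 higher and 4 lower with papain on the AhR-poor diet, and 16 higher and 3 lower with papain on the I3C diet. With 1 library left out, the ranges were 2 to 4 higher by diet with vehicle, 2 to 3 higher and 1 to 3 lower by diet with papain, 1 to 2 higher, 2 to 4 lower and 0 to 1 past 2-fold lower with papain on AhR-poor, and 11 to 18 higher, 2 to 3 lower and 0 to 5 past 2-fold higher with papain on I3C. The cause of these moves was not tested. The interaction was negative in 24 or 25 members throughout. No paired analysis was possible because no replicate code occurs in more than 1 group. Diet and cage cannot be told apart, and the sequencing units are not given for each library. Low counts did not limit the members, whose lowest count was 168.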
